A study of Rosa hybrid cultivar with 39 samples.

Results

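Rose petals fed salicylic acid (SA) and rose petals fed silver nitrate (AgNO3) had the most alike gene averages among 12 conditions of the series. The pair was chosen for that, and the genes that still told them apart are described here. The petals came from the outer layer of 'Samantha', a red hybrid tea rose grown for cut flowers, at stage 2 of flower opening. Cut stems stood for 24 h in 100 µM SA, in 80 µM AgNO3 or, as the control, in deionized water (H2O). The series holds 39 libraries in 13 conditions, of which 6 are the SA and AgNO3 libraries, 3 for each, with 4 flowers behind each library. The other stems stood in solutions of NAA, 2,4-D, BR, 6-BA, ABA, GA3 or JA, and flowers held in air (ET-CK) were the control for the gases ET and 1-MCP. One average per gene and condition was measured for these comparisons, in FPKM, a count of fragments corrected for gene length and library size. Values of the single libraries were not available, so no spread, interval or test can be given. All differences below are descriptions of averages. A gene was compared when its average reached at least 1 FPKM in SA or in AgNO3, which 14198 of 30208 gene identifiers did. Both averages were raised by 1 FPKM before their log2 ratio was taken, so that differences at low genes come out smaller than they are, and a gene is called higher in one treatment from a 2-fold ratio on that scale. The deposited averages carry no read counts, so the counting error behind a value is unknown. The RNA integrity numbers of the libraries did not overlap, lying from 6.5 to 6.9 in SA and from 7.4 to 8.1 in AgNO3, against 6.5 to 7.2 in H2O. RNA integrity and treatment therefore cannot be told apart in this comparison.

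Salicylic acid is a phenolic hormone of plant defence. In Arabidopsis it is sensed by the NPR proteins, which act with TGA transcription factors to switch on pathogenesis-related genes, and it is known there for opposing many responses to jasmonate. Silver ions take the place of the copper ion that ethylene receptors need to bind their gas, so tissue with silver no longer perceives ethylene, and 1-MCP is a gas that occupies the same receptors. Ethylene promotes the opening, senescence and abscission of rose petals, and silver salts are used to lengthen the vase life of cut flowers. The identifiers of the genes are not paired with names in the sources used here, so each gene is described by its levels and place and not by a role.

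Only 124 of the 14198 genes, 0.873%, were at least 2-fold apart between SA and AgNO3. Of these, 40 were higher in SA (0.282% of the genes compared) and 84 higher in AgNO3 (0.592%). Among the 66 pairs that the averages of 12 conditions form, no other had so few genes apart. Since the pair was chosen as the closest, its rank is not a separate result. H2O and 6-BA came second with 182 genes, followed by SA and GA3 with 262 and AgNO3 and GA3 with 311. The median pair had 1422 genes apart and the most distant, BR and ABA, 3459. SA, AgNO3 and GA3 thus lay close to each other, while SA and ABA were 2893 genes apart. The middle of the distribution of ratios was at -0.01 on the log2 scale. From the 5th to the 95th percentile it ran from -0.41 to 0.36, and 93.9% of the genes had a ratio within 0.5 of 0. Across the genes compared, which are not independent replicates, the Pearson correlation of log2(FPKM + 1) was 0.991.

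**Figure D1:**
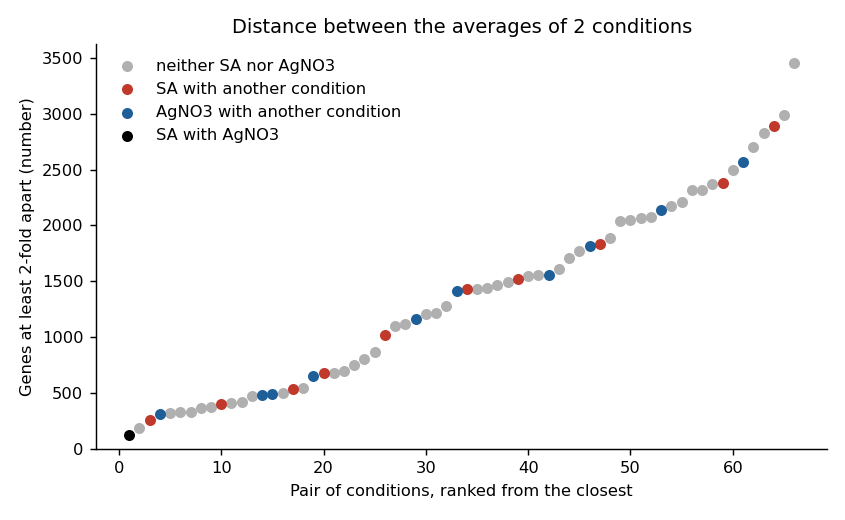
Number of genes at least 2-fold apart (vertical axis) for each of the 66 pairs of conditions, ranked from the closest (horizontal axis), with pairs that include SA or AgNO3 coloured. The pair of SA and AgNO3, at 124 genes, is the lowest point, and pairs of either treatment with other conditions are spread over the whole range up to 2893.

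The genes apart were found at all levels of expression. Where the higher of the 2 averages lay between 1 and 5 FPKM, 1.05% of 4576 genes were apart, 19 higher in SA and 29 in AgNO3. Between 5 and 20 FPKM the share was 0.912%, between 20 and 100 FPKM 0.711%, and from 100 FPKM upwards 0.589% of 1359 genes. In that last class 1 gene was higher in SA and 7 in AgNO3. The genes higher in SA were lowly expressed, with a median SA average of 5.16 FPKM. Those higher in AgNO3 had a median AgNO3 average of 9.33 FPKM and reached 4590 FPKM. Most differences were small, since 97 of the 124 genes had a ratio under 1.5 on the log2 scale. Only 8 genes reached a 4-fold ratio, 6 of them higher in SA.

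**Figure D2:**
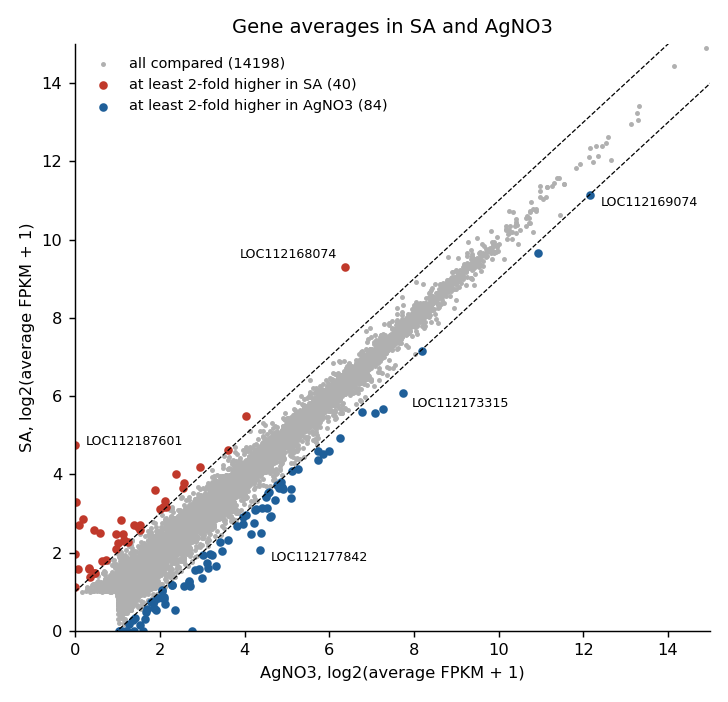
Average expression of 14198 genes in AgNO3 (horizontal axis) and SA (vertical axis), both as log2(FPKM + 1), with dashed lines at 2-fold. The cloud follows the diagonal, with 40 genes (red) above the upper line and 84 (blue) below the lower line, and LOC112187601, at a log2 ratio of 4.74, stands farthest above it.

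Genes just inside and just outside the threshold had like values. LOC112175128 (1.79 FPKM in SA and 0.396 in AgNO3), LOC112201948 (3.78 and 1.39) and LOC112196865 (7.96 and 3.46) were counted as higher in SA, while LOC112195948 (2.36 and 0.689), LOC112191306 (4.02 and 1.53) and LOC112172345 (2.36 and 0.701) fell short. In the other direction LOC112169074 (2272 in SA and 4590 in AgNO3), LOC112193489 (16.0 and 33.5) and LOC112184303 (10.7 and 22.8) were counted. LOC112181390 (2.38 and 5.76), LOC112183398 (2.17 and 5.33) and LOC112170954 (4.42 and 9.82) were not.

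The H2O average shows on which side each difference lay, although it was measured against the same SA and AgNO3 averages that chose the genes. Among the 84 genes higher in AgNO3, 50 were at least 2-fold above H2O in AgNO3 with SA less than 2-fold from H2O. For 16 genes the AgNO3 average stayed within 2-fold of H2O and that of SA was lower. Both treatments were above H2O at 5 genes and both below it at 1, LOC112199856, and at 12 genes neither was 2-fold from H2O. Among the 40 genes higher in SA, SA alone was above H2O at 19, AgNO3 alone was below it at 7, both were above it at 4, and neither was 2-fold away at 10. Over all genes compared, 7.7% were higher and 2.75% lower in SA than in H2O, and 7.92% were higher and 2.80% lower in AgNO3.

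**Figure D3:**
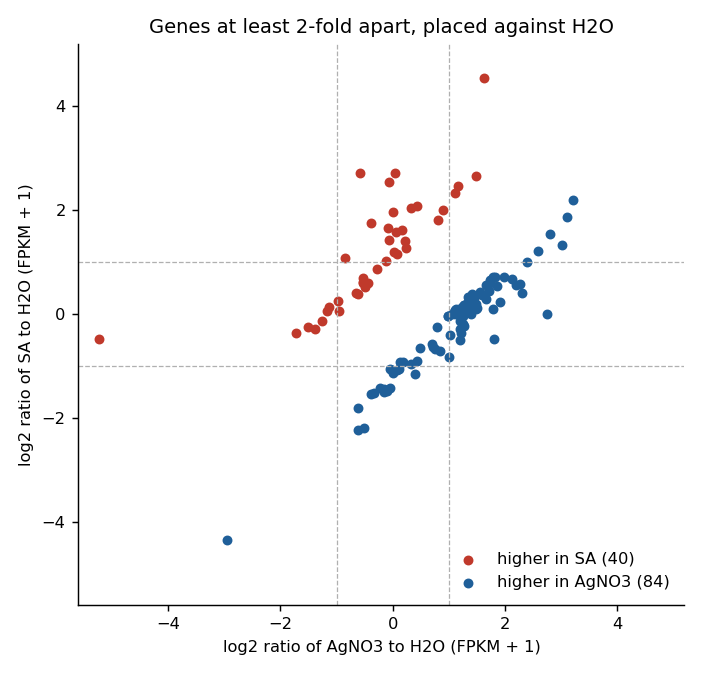
Log2 ratios to H2O of the 124 genes apart, in AgNO3 (horizontal axis) and in SA (vertical axis), with dashed lines at 2-fold. The largest group is the 50 genes higher in AgNO3 (blue) that lie right of the right-hand line and between the horizontal lines, and the gap along the diagonal follows from the way the genes were chosen.

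LOC112168074, on NC_037092.1 from 70413193 to 70414188 of RchiOBHm-V2, was by far the most expressed of the genes higher in SA and the only one of them above 100 FPKM. Its average was 624 FPKM in SA, 82.1 in AgNO3 and 25.8 in H2O, a log2 ratio of 2.91 between SA and AgNO3. It was at 339 FPKM in NAA, 218 in BR, 97.4 in 6-BA and 57.7 in ET-CK, and at 44.0 in GA3, 16.9 in 2,4-D, 12.3 in JA, 4.63 in ABA and 3.05 in 1-MCP. The gene was thus above H2O in both treatments, but to a different extent, and lowest in 1-MCP and ABA. LOC112165852, on NC_037092.1 from 73033293 to 73034031, was at 43.9 FPKM in SA, 15.4 in AgNO3 and 13.7 in H2O. Its next highest averages were likewise 36.7 in NAA and 27.4 in BR, and it was at 8.27 in 1-MCP and 8.67 in JA.

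A few genes had an SA average well above all their other averages. LOC112197423, on NC_037091.1 from 65252866 to 65258420, was at 5.48 FPKM in SA, 0.0601 in AgNO3 and 0.105 in H2O, and its highest average elsewhere was 0.373 in ABA. LOC112194474 was at 5.0 in SA and 0.369 in AgNO3, with 0.820 in BR as its highest average elsewhere. LOC112184253 was at 5.50 FPKM in SA, 1.64 in AgNO3 and 0.181 in H2O, and at 1.88 in NAA. These 3 were the only genes higher in SA whose SA average lay at least 2-fold above that of every other condition. They were chosen for this after their values were seen, and all of them are at low levels.

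Other genes higher in SA had averages near that of SA in at least 1 further condition. LOC112196939, on NC_037091.1 from 64989849 to 64994560, was at 8.88 FPKM in SA, 7.23 in NAA, 6.51 in BR and 4.10 in GA3, but at 0.0156 in AgNO3, 0.00978 in 2,4-D and 0.0214 in ABA. LOC112181669 was at 6.23 in SA, 6.24 in NAA and 4.43 in JA, against 0.129 in AgNO3, 0.109 in GA3 and 0.0994 in H2O. LOC112176446 was at 15.2 in SA, 13.9 in GA3 and 13.3 in BR, against 4.2 in AgNO3, 2.83 in H2O and 0.322 in ET-CK. LOC112176771 was at 11.1 in SA and 7.1 in GA3, against 2.71 in AgNO3, and is listed at 0.00129 in ABA. Low averages were not particular to AgNO3 in these genes, since H2O and others were low as well. Over the 40 genes, ABA was the lowest condition outside SA and AgNO3 for 17.5% and ET-CK for 20%, near the 21% and 16.1% of all genes. LOC112188761, at 17.1 in SA and 6.75 in AgNO3, and LOC112178658, at 12.8 and 4.91, differ from them because H2O, at 14.1 and 12.2, lay near SA and above AgNO3.

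The remaining genes of the 15 with the largest ratios in this direction were at low levels too. LOC112173490 was at 6.08 FPKM in SA and 1.12 in AgNO3, LOC112189256 at 9.05 and 3.36, LOC112185117 at 5.56 and 1.91, and LOC112201955 at 5.31 and 1.82. The last was listed at 0.00340 in H2O and lay above H2O in both treatments, by 2.65 in SA and 1.49 in AgNO3 on the log2 scale.

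The largest ratio of all, 4.74 on the log2 scale, rests on an average near 0. LOC112187601, deposited at NC_037089.1 from 30542153 to 30586886, was at 25.8 FPKM in SA and 36.6 in H2O, while its averages in AgNO3, GA3 and BR were close to 0. Its highest averages were 132 in ABA and 107 in 6-BA. In NAA, 2,4-D, JA, ET-CK and 1-MCP it lay between 4.60 (JA) and 31.1 (2,4-D). It shares that locus with LOC112187519, which was at 36.0 in SA and 34.7 in AgNO3, and with LOC112186618, at 10.5 and 11.7. How reads were divided among genes of a shared locus was not examined. Of the 124 genes 34 share a deposited locus with another identifier, 11 higher in SA and 23 in AgNO3. At 11 genes the lower of the 2 averages was under 0.01 FPKM, and 10 of these were also under it in at least 1 further condition. Neither the shared loci nor these low averages were counted over all genes compared, so nothing particular to the 124 is read from them. LOC112202483 and LOC112203953 are listed at 0 in SA, at 1.33 and 1.63 FPKM in AgNO3.

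Several well-expressed genes higher in AgNO3 were high in JA and BR, and these were picked for that after their values were seen. LOC112187849, on NC_037089.1 from 68993941 to 68995370, was at 153 FPKM in AgNO3, 50.2 in SA and 65.4 in H2O. It was at 687 in BR, 371 in JA, 167 in 2,4-D and 165 in GA3, and between 60.0 and 112 in NAA, 1-MCP, ABA, 6-BA and ET-CK. LOC112175281, on NC_037094.1 from 69926368 to 69932422, had nearly the same order, with 133 in AgNO3, 46.6 in SA, 57.4 in H2O, 609 in BR, 422 in JA, 150 in 2,4-D, 150 in ET-CK and 137 in GA3. LOC112180668, which is deposited under these coordinates too, was at 290 in AgNO3, 140 in SA, 134 in H2O, 1083 in BR and 752 in JA. In these 3 genes SA was close to H2O and AgNO3 close to 2,4-D and GA3.

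LOC112167847 had its highest average in JA, at 140 FPKM. It was at 20.1 in AgNO3 and 4.61 in SA, against 3.25 in H2O, 86.2 in ET-CK, 51.8 in BR, 27.1 in GA3, 22.0 in 1-MCP and 14.4 in 2,4-D. LOC112177842, on NC_037094.1 from 35793360 to 35850404, was at 19.5 in AgNO3, 3.21 in SA and 4.88 in H2O, and at 56.5 in ET-CK, 45.3 in JA and 8.61 in 1-MCP. Both genes were high in ET-CK and in JA, and lower in 1-MCP than in ET-CK. LOC112170480 followed them outside the 15 genes of the largest ratios, with 33.2 in AgNO3, 11.4 in SA, 6.85 in H2O, 94.3 in JA, 105 in ET-CK and 31.9 in 1-MCP.

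Further genes of the 15 with the largest ratios had the same high averages in JA. LOC112177707 was at 23.5 FPKM in AgNO3, 6.61 in SA, 4.08 in H2O and 68.3 in JA. LOC112178904 was at 17.8, 5.70, 6.81 and 41.0 in the same order, and LOC112177451 at 9.0, 2.14, 1.66 and 33.3. LOC112176814, at 23.3 in AgNO3, 6.53 in SA and 2.00 in H2O, was at 32.8 in BR and 28.5 in JA and is listed at 0.00154 in ABA. LOC112188563, at 16.9, 4.58 and 4.2, was at 74.3 in BR and 21.8 in JA. All of these averages in JA lay above those in AgNO3.

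Others, picked in the same way, were high in ABA, and some were high in neither, such as LOC112198245, at 21.6 FPKM in AgNO3, 9.71 in SA and 54.9 in 1-MCP. LOC112173315, on NC_037093.1 from 67007723 to 67008450, was at 927 FPKM in ABA, 306 in H2O and 213 in AgNO3, but at 66.0 in SA, 64.0 in GA3 and 41.8 in BR. LOC112201439 was at 3073 in ABA, 1959 in AgNO3, 817 in H2O and 799 in SA, and LOC112188587 at 65.9, 33.4, 14 and 9.58. LOC112176750 was at 137 in ABA, 6.61 in AgNO3, 7.49 in H2O and 2.00 in SA. At LOC112173315, LOC112201439, LOC112188587 and LOC112176750, SA was the lowest of the averages in ABA, AgNO3, H2O and SA. That SA lay below AgNO3 there follows from the way the genes were chosen. Of these genes, AgNO3 was above H2O only at LOC112201439 and LOC112188587.

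In several genes SA, and not AgNO3, was far from H2O. The most expressed of all, LOC112169074, on NC_037093.1 from 62804012 to 62804874, was at 4590 FPKM in AgNO3 and 4757 in H2O but at 2272 in SA, 1275 in GA3 and 871 in BR. LOC112191514 was at 109 in AgNO3, 137 in H2O, 47.2 in SA and 39.0 in BR. LOC112199856 was at 48.4 in H2O, 5.43 in AgNO3 and 1.42 in SA, so that it was far lower than H2O in both. SA was at least 2-fold below H2O at 17 of the 84 genes, and at 11 of these the lowest average outside SA and AgNO3 was that of BR or GA3, at 8 and 3 genes. Over all genes compared BR was the lowest for 15.1% and GA3 for 9.61%. The 390 genes lower in SA than in H2O were not set beside the 17, so nothing particular to the 17 can be read from this.

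The rest of the 15 genes had their high averages in single conditions or at low levels. LOC112197262 was at 5.56 FPKM in AgNO3 and 1.22 in SA but at 130 in ET-CK. LOC112175083 was at 7.85 in AgNO3, 2.02 in SA and 17.0 in NAA. LOC112179411, at 6.93 in AgNO3 and 1.55 in SA, and LOC112172512, at 5.75 and 0.000951, were higher in AgNO3 than in every other condition. LOC112164745, LOC112164511 and LOC112197359 were the genes whose AgNO3 average lay at least 2-fold above that of all other conditions, at 14.6, 2.64 and 1.09 FPKM. They were singled out after their values were seen.

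**Figure D4:**
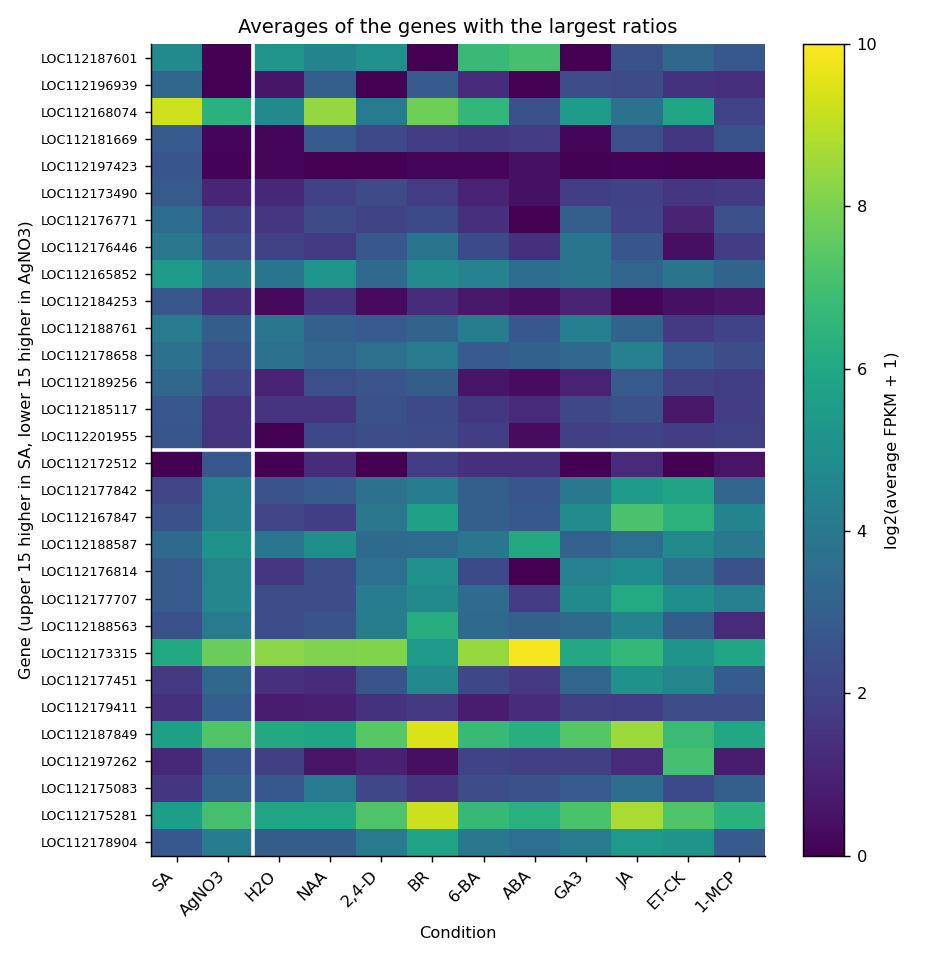
Averages, as log2(FPKM + 1), of 30 genes (rows), the 15 with the largest ratio towards SA and the 15 with the largest towards AgNO3 once the higher average reached 5 FPKM, in 12 conditions (columns). In the lower block LOC112187849, LOC112175281 and LOC112167847 are bright in BR and JA, at 371 to 422 FPKM in JA for the first pair, and LOC112173315 is brightest in ABA, at 927 FPKM, while LOC112197423 in the upper block is visible in SA alone.

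Averages that the choice of genes did not use were then set beside all genes compared. In JA against H2O, 39 of the 84 genes higher in AgNO3 were higher in JA (46.4%), where 5.89% of all genes compared were. Only 3 of them, or 3.57%, were lower in JA against 2.28% of all. Their median log2 ratio of JA to H2O was 0.81, and that of all genes 0.07. Of the 40 genes higher in SA, 9 were higher (22.5%) and 6 lower (15%) in JA, with a median of 0.04. With NAA in place of H2O as the reference, 37 of the 84 genes were higher in JA (44%, against 3.65% of all) and 5 lower (5.95%, against 2.23%). Of the 40 genes 4 were higher and 8 lower. NAA was itself the lowest condition outside SA and AgNO3 for 14.3% of the 84 genes, against 4.01% of all. The change of reference is therefore no check against a low reference. Genes are not independent of each other, so no test was made of these shares. Of the 84 genes, 55 were at least 2-fold above H2O in AgNO3 (65.5%, against 7.92% of all). They were not set beside all genes higher in AgNO3 than in H2O, so a link to JA in particular cannot be read from the shares.

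1-MCP against ET-CK, a comparison with neither SA, AgNO3 nor H2O in it, gave the opposite direction. There 24 of the 84 genes higher in AgNO3 were lower in 1-MCP (28.6%), where 1.02% of all genes compared were, and 3 were higher (3.57%, against 1.61%). Among the 40 genes higher in SA, 1 was lower in 1-MCP and 7 were higher (17.5%). Of the 24 genes lower in 1-MCP, 18 were among the 39 higher in JA, which is 75% of the former and 46.2% of the latter. Over all genes compared, 47 of the 145 genes lower in 1-MCP were higher in JA, or 32.4%. These 47 were 5.62% of the 836 genes higher in JA. Since the 84 genes were already often higher in JA and often lower in 1-MCP, no link between the 2 is read from the overlap. The 84 were not set beside all genes higher in AgNO3 than in H2O here either. The values deposited for ET are the same as those of ET-CK at all 38170 transcripts, so whether the reference was air or ethylene cannot be told.

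**Figure D5:**
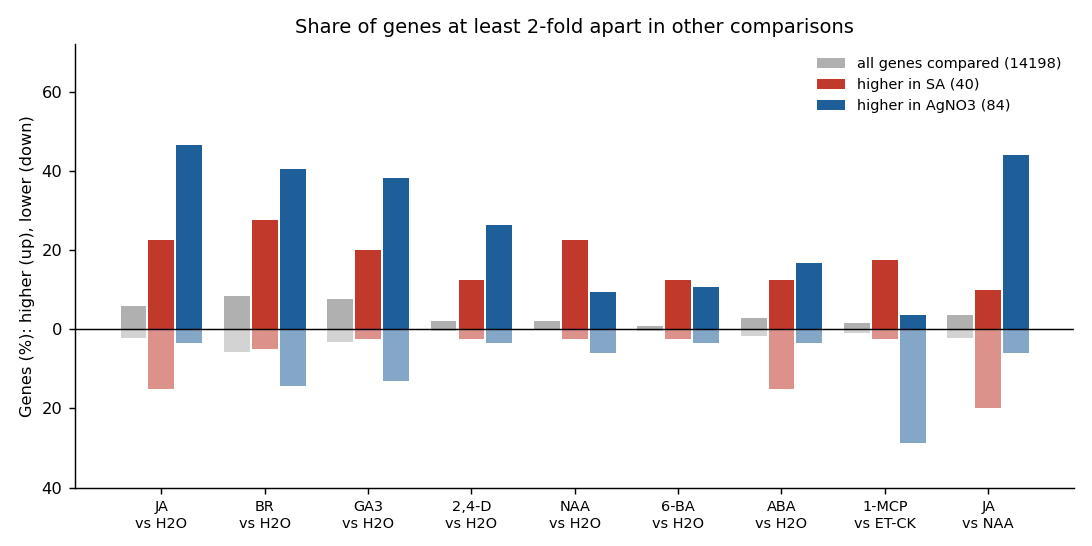
Percentage of genes at least 2-fold higher (bars upwards) or lower (paler bars downwards) in comparisons of other conditions, for all 14198 genes (grey), the 40 genes higher in SA (red) and the 84 higher in AgNO3 (blue). The blue bars reach 46.4% upwards in JA against H2O and 28.6% downwards in 1-MCP against ET-CK, where the grey bars are at 5.89% and 1.02%.

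In the remaining solutions, which were compared with the same H2O average, shares above the background came in both lists. BR gave 34 higher (40.5%) and 12 lower (14.3%) of the 84 genes and 11 higher and 2 lower of the 40, with 8.34% higher and 5.80% lower over all genes. In GA3 32 of the 84 were higher and 11 lower, and 8 and 1 of the 40, against 7.59% and 3.13% of all. 2,4-D gave 22 and 3 of the 84 and 5 and 1 of the 40, against 2.03% and 0.507%. The auxin NAA stood apart from 2,4-D, with 9 of the 40 genes higher (22.5%) and 8 of the 84 (9.52%), against 2.2% over all genes, and with 1 and 5 lower, against 0.303%. In ABA 14 of the 84 were higher and 3 lower, and 5 and 6 of the 40, against 2.75% and 1.79%. In 6-BA 9 of the 84 and 5 of the 40 were higher, against 0.803%, and 3 and 1 were lower, against 0.430%. Both lists thus had more genes higher than the background in each of these solutions. The 84 genes also had more lower than the background in each of them, though at only 3 genes in 2,4-D, ABA and 6-BA. Among the 40, more were lower than the background in ABA, at 6 genes. In 2,4-D, NAA and 6-BA the share of the 40 that was lower rested on 1 gene each. For the 84 genes the excess was therefore not confined to genes that were higher.

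The condition with the highest average outside SA and AgNO3 gave the same picture for JA, but not for ET-CK and 1-MCP. That condition was JA for 18 of the 84 genes (21.4%), where it was JA for 6.74% of all genes compared, and JA was the lowest for none of the 84. H2O was the lowest for 16 (19%, against 7.69%) and NAA for 12 (14.3%, against 4.01%). BR was the highest for 20 genes (23.8%) and ABA for 16 (19%), but these shares were near those of all genes, 19% and 20.2%. ET-CK was the highest for 8 of the 84 (9.52%, against 16.9%) and 1-MCP the lowest for 6 (7.14%, against 8.76%). For the 40 genes higher in SA, NAA was the highest at 9 (22.5%, against 5.7%), and ET-CK, the highest for 16.9% of all genes, at none. The median level of the 84 genes was 10.9 FPKM in JA, 9.33 in AgNO3, 8.49 in ET-CK, 5.16 in 1-MCP, 3.03 in SA and 2.96 in H2O.

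Where the threshold was set at 0.5 on the log2 scale, the shares higher in JA lay closer together, at 41.4% of the genes higher in AgNO3 and 33.7% of those higher in SA, with 18.6% of all genes. With a pseudocount of 0.1 FPKM they were 35.8% and 30.5%, with 10.1% of all, so that the difference between the lists in JA depended on these settings. The share lower in 1-MCP was 30.5% and 8.86% at the lower threshold, with 5.87% of all, and 26% and 9.16% with the smaller pseudocount, with 2.2% of all.

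Some of the genes apart lie next to each other. Within 20000 bases of each other on the genome there were 12 pairs of neighbours among the 124, 4 of them at a shared locus. The number was not set beside that of all genes compared, and nothing is read from it. LOC112187849 and LOC112188563 lie 7553 bases apart, and both were highest in BR. LOC112177707 and LOC112177708 lie 3592 bases apart, and the second was at 5.44 FPKM in AgNO3 and 1.39 in SA. LOC112192613, at 56.4 in AgNO3 and 21.8 in SA, and LOC112194865, at 52.6 and 19.8, are 11279 bases apart on NC_037090.1, and were at 129 and 164 in BR and 86.3 and 115 in JA. In the opposite direction LOC112173581, at 9.66 in AgNO3 and 3.84 in SA, lies 1938 bases from LOC112173582, at 0.0457 and 1.97. On the single chromosomes, between 0.643% and 1.19% of the genes compared were apart.

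Of the 124 genes 14 have several transcripts, as do 5094 of all 30208 identifiers. In 8 of them a transcript was at least 2-fold higher in SA, and in 5 a transcript was at least 2-fold higher in AgNO3. The leading transcript was taken in each treatment on its own, so it may not be the same one in both. Its share differed most at LOC112179411 and LOC112167766, in opposite directions. At LOC112179411 the leading transcript in SA was at 0.820 FPKM, 53.1% of the gene's total, and that in AgNO3 at 6.45, 93.2% of it. At LOC112167766 the leading transcript made up 91.1% in SA and 51.1% in AgNO3. At LOC112172512 a single transcript of 4.62 FPKM made up 80.3% of the total in AgNO3.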

How the data were processed

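Petal RNA of 39 libraries in 13 conditions was sequenced by the authors. Reads were mapped to RchiOBHm-V2 with TopHat2 2.1.1, assembled with Cufflinks 2.2.0 and Cuffmerge and quantified with Cuffdiff, and for each condition the authors deposited FPKM as 1 average per transcript. The sources used here do not give the normalization between conditions. FPKM of 38170 transcripts were summed per identifier, giving 30208 genes, of which 9 join the names of neighbours. ET, whose values equal those of ET-CK, was left out.

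Ratios were taken on the log2 scale with a pseudocount of 1 FPKM, and counting was tested on simulated data. Without replicate values no test could be run. The comparison, the gene lists and the settings were chosen with earlier results of these data known. The genes named were the 15 with the largest ratio towards SA and the 15 towards AgNO3, once the higher average reached 5 FPKM, and the 3 nearest to the threshold on each side. Other genes named were picked after their values were seen. Lists of pathway genes and of green tissue markers, and promoter motifs, could not be matched to identifiers. Positions are those of the deposited loci. Python 3.11.15, numpy 2.4.6, pandas 2.3.3 and matplotlib 3.10.9 were used.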

Additional observations from a re-analysis of the deposited data

How the results depend on the processing

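No paired analysis was possible because only condition averages were used and these have no replicate number, and leaving out replicates was not run for the same reason. SA and AgNO3 were the closest of the 66 pairs also with a pseudocount of 0.1 and at a log2 ratio of at least 0.5. With a pseudocount of 0.1, 335 genes were apart, 131 higher in SA and 204 in AgNO3. With a minimum of 5 FPKM they were 76, 21 and 55, at a log2 ratio of at least 0.5 they were 872, 350 and 522, and for transcripts without summing 222, 95 and 127. The genes higher in AgNO3 with AgNO3 alone above H2O numbered 78, 28 and 193 in the first 3 of these settings. Those higher in SA with SA alone above H2O numbered 38, 11 and 107, and 39 for transcripts without summing. Median scaling left 120 genes apart, and no minimum left 124. Added after seeing the data, summing per deposited locus gave 101 genes and leaving out genes at shared loci 90. Over these alternatives, the share higher in JA ran from 33.1% to 50.9% for genes higher in AgNO3 and from 18.9% to 33.7% for those higher in SA. Over all genes compared it ran from 2.85% to 18.6%. The share lower in 1-MCP ran from 21.3% to 38.2% for genes higher in AgNO3 and from 2.5% to 9.16% for those higher in SA. Over all genes compared that share ran from 0.573% to 5.87%. The 30 genes of the largest ratios kept their direction and stayed past 2-fold with a pseudocount of 0.1 and with median scaling, the alternatives that change a ratio. Neither could well have turned out otherwise, so this says little about the genes. A smaller pseudocount widens every ratio. Median scaling set each condition to the mean of the medians of all conditions used, before 1 FPKM was added. The log2 medians of SA and AgNO3 differed by only -0.0036, but the common scale also changes the weight of the pseudocount. The log2 ratio of LOC112187601 thus went from 4.74 to 4.67. Pathway lists at a log2 ratio of at least 0.5 were not run, because no identifier could be matched.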
